A study of Mus musculus with 2 samples.

Results

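The genes described here are 39 imprinted genes of the mouse other than the insulin-like growth factors and their receptors and binding proteins. They were chosen by name from the known imprinted clusters and matched by Ensembl identifier to the 43346 Ensembl gene rows measured in newborn liver, and all 39 had a row. The RNA came from the livers of 2 newborn B6NCrl mice, an inbred strain, at an age of 0 days, with 1 liver per library and both pups born to the same dam. The pups form a single group of 2 biological replicates, called pup 1 and pup 2, and the labels record no sex. Each library was started from 10 ng of total RNA longer than 200 nt. Total expected counts were 42124582 in pup 1 and 41443673 in pup 2, and a gene with no reads could still be present at up to 3 counts (0.0712 CPM in pup 1 and 0.0724 CPM in the other, where CPM is a count relative to all counts of that library). That floor reflects counting error alone.

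Imprinted genes are transcribed from the copy inherited from 1 parent, because a control region in each cluster carried DNA methylation from the egg or the sperm into the embryo. Many of them regulate growth before birth, and liver is a tissue where several are strongly expressed in the fetus and shut down in the weeks after birth. Imprinted clusters commonly pair protein-coding genes of 1 parental allele with long noncoding RNAs of the other, and some of those RNAs host microRNAs and small nucleolar RNAs. The parental allele given for each gene below is textbook knowledge, in part from placenta or brain and not from liver. Allele-specific expression was not measured, since both chromosomes of an inbred animal have the same sequence.

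Methylated imprint control regions are kept through early development by the zinc finger protein ZFP57, which binds the methylated hexamer TGCCGC. Reference promoter windows (250 bases before to 50 after a RefSeq start, GRCm38.p6) were found for 33 of the 39 genes; none was found for H19, Rtl1, Cdkn1c, Peg10, Sgce and Impact. The hexamer, searched on both strands, was present in a window of 10 of these 33 genes (30.3%), namely Mest, Nap1l5, Plagl1, Meg3, Grb10, Snrpn, Nnat, Commd1, Copg2 and Zim1, against 13.1% of all 27025 genes with a window. Counted by window, it was present in 11 of 48 (22.9%) against 11.6% of 32851. The windows of these genes were richer in CpG, with a median of 12.5 CpG against 7 over all windows, and among windows with 15 or more CpG the hexamer shares were 40.9% and 25.1%. With only the 250 bases before the start, 6 genes (18.2%) kept a match, against 9.84% of all genes. A match is a description of letters in a window and does not show binding.

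The parts before the start are shown for 4 genes with a match there, because they hold the hexamer close to starts that carried most of the gene's RNA in these livers or, for Nap1l5, to a start with almost none. Capitals mark TGCCGC or, on the other strand, GCGGCA. The Mest stretch is chr6:30737800-30738049 (plus strand), next to starts that held 88.9% of Mest TPM in pup 1 and 90.6% in pup 2. The Plagl1 stretch is chr10:13090582-13090831 (plus strand), beside the starts of all measured Plagl1 RNA. The Meg3 stretch is chr12:109540746-109540995 (plus strand), beside starts holding 84.8% and 79.4% of Meg3 TPM. The Nap1l5 stretch is chr6:58907127-58907376 (minus strand).
Mest: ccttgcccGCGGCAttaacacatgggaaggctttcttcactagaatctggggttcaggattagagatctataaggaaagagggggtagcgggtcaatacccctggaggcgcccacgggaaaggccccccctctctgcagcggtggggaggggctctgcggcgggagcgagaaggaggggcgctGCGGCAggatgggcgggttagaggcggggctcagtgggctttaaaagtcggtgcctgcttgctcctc
Plagl1: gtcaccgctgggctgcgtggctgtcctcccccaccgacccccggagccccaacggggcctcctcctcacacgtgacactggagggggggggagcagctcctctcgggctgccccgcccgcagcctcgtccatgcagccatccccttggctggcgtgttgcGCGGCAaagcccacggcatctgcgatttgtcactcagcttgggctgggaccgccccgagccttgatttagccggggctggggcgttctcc
Meg3: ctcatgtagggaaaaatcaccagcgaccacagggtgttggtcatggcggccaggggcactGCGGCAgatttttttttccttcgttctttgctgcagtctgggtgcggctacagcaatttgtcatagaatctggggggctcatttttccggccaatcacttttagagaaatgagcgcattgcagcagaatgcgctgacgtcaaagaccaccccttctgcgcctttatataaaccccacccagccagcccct
Nap1l5: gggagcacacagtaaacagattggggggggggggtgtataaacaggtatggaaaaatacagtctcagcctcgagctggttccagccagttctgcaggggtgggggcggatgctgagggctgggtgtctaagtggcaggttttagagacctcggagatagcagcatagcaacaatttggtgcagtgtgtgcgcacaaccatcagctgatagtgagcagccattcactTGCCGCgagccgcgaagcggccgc
Mest held 2 hexamers and the others 1 each in these stretches. The 4 genes spanned very different levels, from 110.0 TPM for Mest in pup 2 to 0.14 TPM for Nap1l5 in the same liver.

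The imprinted genes also host small RNAs, which these libraries were not able to count. Inside the gene bodies lie 45 annotated small RNA genes (32 microRNA and 13 small nucleolar RNA genes). Of these, 43 had a row, 39 of the rows had an effective length of 0, and none received a read. The values below for H19, Meg3, Rian, Mirg and Mest therefore describe the host RNA and not its microRNAs. RefSeq gives 54 mature microRNAs from 29 hairpins in the imprinted genes, with 53 different seeds (bases 2 to 8, in capitals), so that almost no seeds are shared. The sequences below are 1 or 2 products of each main host, and miR-453 and miR-496a-5p, both from Mirg, are the pair with a common seed.
miR-675-5p: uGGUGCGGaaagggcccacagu
miR-675-3p: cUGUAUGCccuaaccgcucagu
miR-770-5p: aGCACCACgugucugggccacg
miR-370-3p: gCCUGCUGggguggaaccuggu
miR-453: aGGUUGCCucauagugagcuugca
miR-496a-5p: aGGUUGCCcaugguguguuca
miR-410-3p: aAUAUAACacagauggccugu
miR-127-3p: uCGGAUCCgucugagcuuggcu
miR-136-5p: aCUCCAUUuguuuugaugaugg
miR-335-5p: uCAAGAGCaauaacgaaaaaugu
Both arms of miR-675 lie in H19, miR-770 in Meg3 and miR-370 in Rian. Mirg holds 14 hairpins, more than any other host in the set. The hairpins of miR-127 and miR-136 lie opposite to Rtl1, whose messenger RNA they match in full, and miR-335 lies in an intron of Mest.

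Levels are given as TPM, reads per effective length scaled to the same total in each table, so genes can be compared within a liver. A gene was called detected at 1 TPM or more in each liver. By this rule 28 of the 39 imprinted genes were detected (71.8%), against 28.5% of all 43346 Ensembl genes. Of the 33 of protein-coding type, 23 were detected, against 52.9% of all protein-coding genes. The nearest gene above the line was Mirg (1.71 TPM in pup 1 and 1.08 in pup 2), and the nearest below were Peg12 (1.16 and 0.93) and Zrsr1 (0.96 and 1.14), each past it in 1 liver only. Together the 39 genes held 0.269% ± 0.00319 of TPM (SD, n = 2). A single gene, H19, made up 47.8% of their TPM in pup 1 and 48.8% in pup 2.

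Levels spanned from H19 down to genes with no read in 1 of the livers. 6 genes passed 100 TPM in both livers, namely H19, Gnas, Slc38a4, Cd81, Commd1 and Mest, while Grb10 (105 and 95.9 TPM) did so in pup 1 only. With Grb10, 8 more genes passed 10 TPM in both livers, the others being Meg3, Dlk1, Tspan32, Peg3, Cdkn1c, Sgce and Slc22a18. Several neighbours in this order were not separated beyond their spread. Tspan32 (30.0 ± 4.30 TPM), Peg3 (28.9 ± 4.32), Cdkn1c (27.8 ± 6.63) and Sgce (24.7 ± 1.02) overlapped, as did Meg3 (49.95 ± 4.00) and Dlk1 (45.8 ± 0.509).

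**Figure D1:**
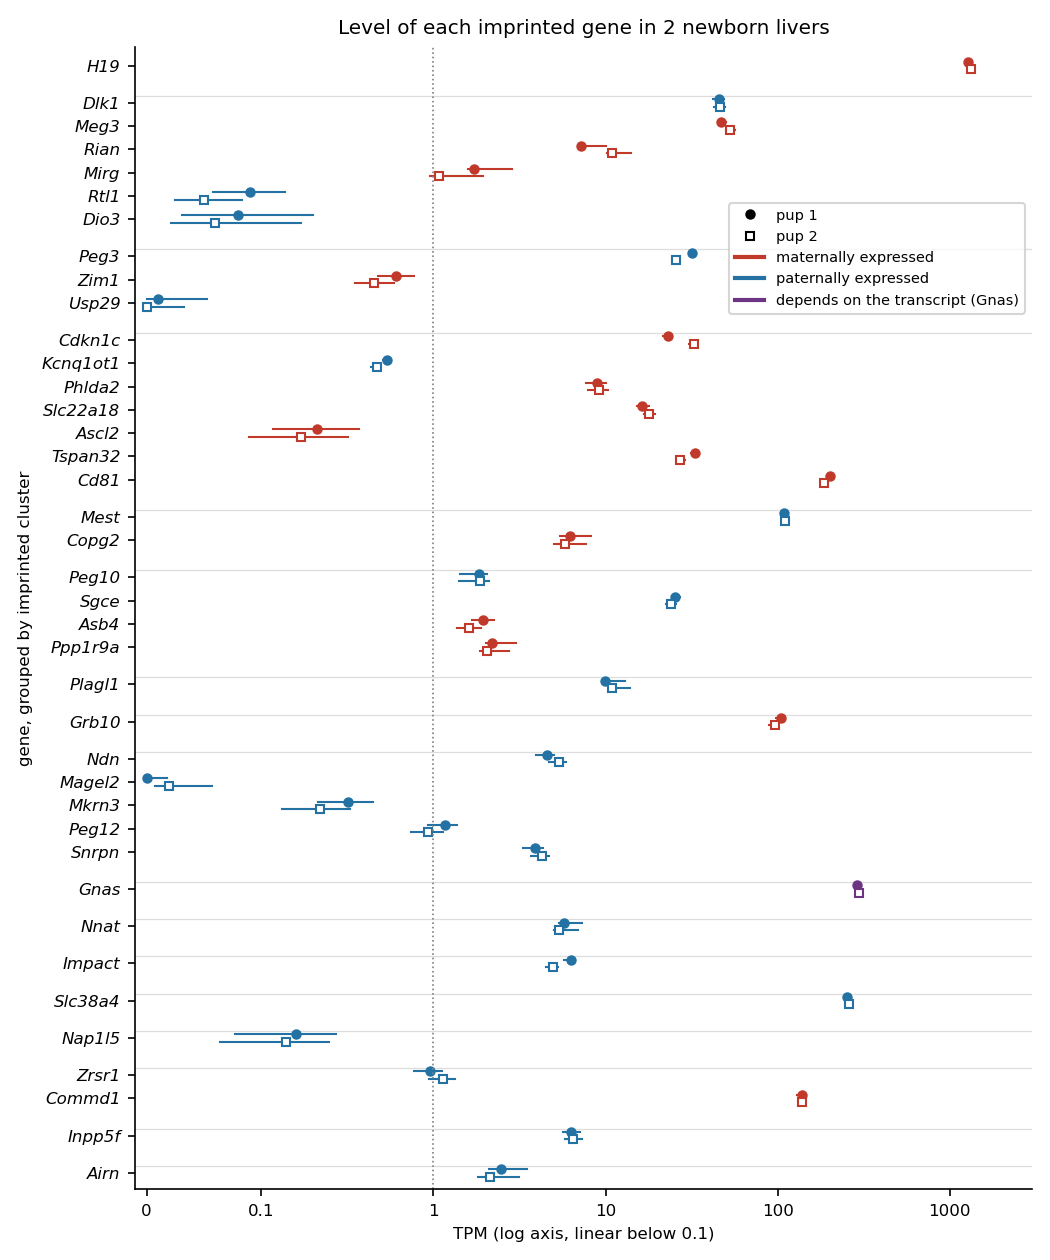
TPM of the 39 imprinted genes (log axis, linear below 0.1) in pup 1 (filled circles) and pup 2 (open squares), grouped by cluster and coloured by the parental allele known to be expressed; lines are the credible intervals the authors deposited and the dotted line is the detection level of 1 TPM. H19 stands highest at 1274 and 1324 TPM, and 11 genes fall below the line in at least 1 liver.

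H19 (chromosome 7, 142575529 to 142578143, minus strand) is a maternally expressed noncoding RNA abundant in fetal liver, and it shares its enhancers with the paternally expressed growth factor gene Igf2. H19 stood at 1274 TPM in pup 1 (65683 expected counts) and 1324 in pup 2 (67992), rank 87 of all Ensembl genes. Igf2 stood at 1450 and 1325 TPM. The log2 ratio of H19 to Igf2 was -0.19 in pup 1 and 0 in pup 2 (mean -0.09 ± 0.132, SD, n = 2), so the maternal and paternal products of the domain were present in amounts that did not differ beyond the spread between livers. Among genes known to take part in the postnatal shutdown of H19 or of alpha-fetoprotein, Zbtb20 stood at 8.02 and 6.75 TPM and Zhx2 at 0.82 and 0.65. The median of all genes with a mean of 1 TPM or more was 9.09 and 8.72 TPM. A link of these levels to those of H19 or Afp was not tested. Afp itself stood at 9735 and 10156 TPM.

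The Dlk1-Dio3 domain on chromosome 12 showed a steep range among its coding genes and a stepwise range among its noncoding ones. Dlk1 (109452823 to 109463336, plus strand), a paternally expressed transmembrane protein with EGF repeats that marks hepatoblasts, stood at 45.4 and 46.1 TPM. The other paternal coding genes were close to 0: Rtl1, a gene derived from a retrotransposon that serves the placenta, stood at 0.09 and 0.05 TPM, and Dio3, which inactivates thyroid hormone, at 0.08 and 0.06 TPM with 4 and 3 expected counts. The log2 ratio to Dlk1 was -9.41 ± 0.616 for Rtl1 and -9.37 ± 0.310 for Dio3.

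The maternal noncoding genes of this domain follow each other on the plus strand. Meg3 (109541001 to 109571726), a long noncoding RNA, starts 88.2 kb after the start of Dlk1 and stood at 47.1 and 52.8 TPM. Rian (109603940 to 109661716), the host of the 13 small nucleolar RNA genes, starts at 151.1 kb and stood at 7.18 and 10.9 TPM. Mirg (109729764 to 109749460), the microRNA host, starts at 276.9 kb and stood at 1.71 and 1.08 TPM (75 and 40 expected counts). Each was lower than the one before it in both livers, with log2 ratios of -2.49 ± 0.311 for Rian to Meg3 and -2.70 ± 0.896 for Mirg to Rian. Meg3 and Dlk1, the leading products of the maternal and the paternal chromosome, had a log2 ratio of 0.05 in pup 1 and 0.19 in pup 2, within the spread by the rule used for pairs (both livers on the same side of 0 and a mean over 3 SD from it).

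The Kcnq1 domain on chromosome 7 is silenced on the paternal chromosome by the noncoding RNA Kcnq1ot1, which runs antisense to Kcnq1, and its coding genes are maternally expressed. Kcnq1ot1 (143203458 to 143296549, minus strand) stood at 0.54 and 0.47 TPM. Its annotated length of 84395 nt means that this low value rested on 1623 and 1405 expected counts. The strandedness of the libraries is not given in the sources used here, so reads of Kcnq1ot1 and of introns of Kcnq1 cannot be told apart. Kcnq1 stood at 0.56 and 0.32 TPM, and the log2 ratio of the pair, 0.25 ± 0.429, did not pass its spread. With the posterior mean in place of TPM the ratio turned to -1.56 and passed.

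The coding genes on both sides of Kcnq1ot1 spanned a wide range. Cdkn1c (143458339 to 143461050, minus strand), which encodes the cell cycle inhibitor p57, stood at 23.2 TPM in pup 1 and 32.5 in pup 2. Slc22a18 (143473736 to 143499334, plus strand), a transporter of organic cations, stood at 16.3 and 17.8 TPM, and Phlda2 (143501545 to 143503150, minus strand), a pleckstrin homology protein that restrains placental growth, at 8.93 and 9.21. Within each liver these 3 neighbours kept 1 order, with Cdkn1c above Slc22a18 and Slc22a18 above Phlda2 (log2 ratio of Slc22a18 to Phlda2 0.91 ± 0.057, and of Phlda2 to Cdkn1c -1.60 ± 0.315). Cdkn1c exceeded Kcnq1ot1 by 5.77 ± 0.488 on the log2 scale.

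At the other end of the domain lie a transcription factor gene and a pair of tetraspanin genes. Cd81 (143052739 to 143067934, plus strand), a widely expressed tetraspanin, was the highest gene of the domain at 202 and 186 TPM. Tspan32 (143005046 to 143019644, plus strand), a tetraspanin of blood cells, stood at 33.1 and 27.0 TPM (log2 ratio of Cd81 to Tspan32 2.70 ± 0.119). Ascl2, a transcription factor of the placenta, stood at 0.21 and 0.17 TPM with 11 and 9 expected counts and was not detected. In whole livers, fewer cells of a type and less RNA per cell cannot be told apart, and newborn liver holds many blood cells: all 10 erythroid markers were detected, with a summed 64418 TPM in pup 1 and 67220 in pup 2.

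**Figure D2:**
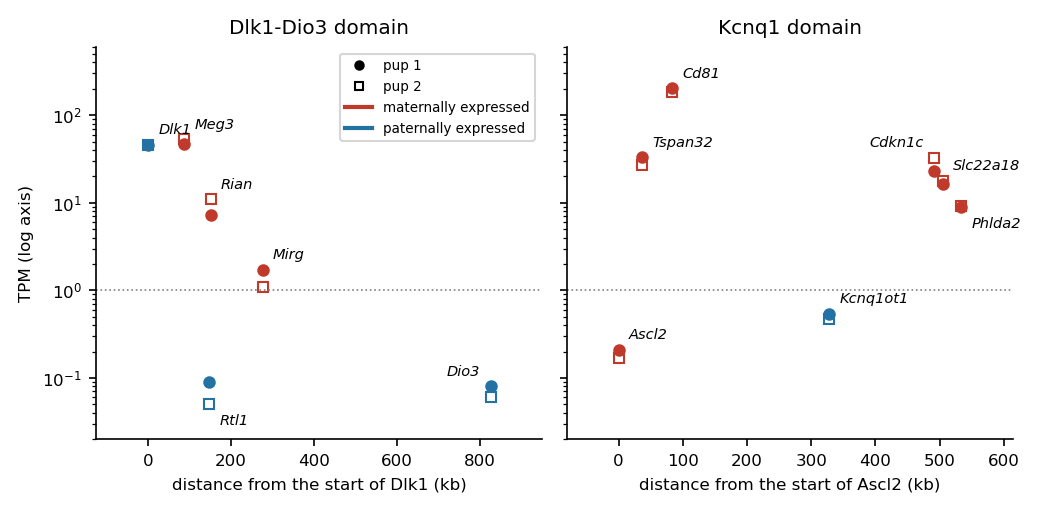
TPM (log axis) of the genes of 2 imprinted domains against the distance of their starts in kb from Dlk1 (left) and from Ascl2 (right), in pup 1 (filled circles) and pup 2 (open squares); the dotted line is 1 TPM. The maternal noncoding genes step down from Meg3 through Rian to Mirg, and Kcnq1ot1 at 0.54 and 0.47 TPM lies between detected coding genes.

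Genes that lie near the top of the set outside these domains include signalling and transport genes. Gnas (chromosome 2, 174284320 to 174346744, plus strand), the locus of the stimulatory G protein alpha subunit, stood at 291 and 298 TPM, above the inhibitory subunit gene Gnai2 (128 and 139 TPM). Slc38a4 (chromosome 15, 96994820 to 97055956, minus strand), a paternally expressed transporter of neutral amino acids, stood at 253 and 258 TPM. It exceeded its paralog Slc38a2 (25.3 and 16.0 TPM) by 3.67 ± 0.489 on the log2 scale. Grb10 (chromosome 11, 11930508 to 12038683, minus strand), a maternally expressed adaptor that inhibits the insulin and IGF1 receptors, stood at 105 and 95.9 TPM. Its paralog Grb7, which is not imprinted, stood lower at 32.6 and 27.4 TPM.

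Mest and Copg2 lie tail to tail on chromosome 6 and overlap at their ends. Mest (30723547 to 30748465, plus strand), a paternally expressed protein with a hydrolase fold that is linked to fetal and adipose growth, stood at 109 and 110.0 TPM. Copg2 (30747554 to 30896794, minus strand), a coat protein of transport vesicles, stood at 6.19 and 5.78 TPM (log2 ratio of Mest to Copg2 4.19 ± 0.08). Commd1 (chromosome 11, 22896136 to 22982382, minus strand), a protein of copper handling, stood at 137.5 and 139 TPM. The paternally expressed retrogene Zrsr1 (22972005 to 22976496, plus strand), a splicing factor gene that sits in an intron of Commd1 on the other strand, stood at 0.96 and 1.14 TPM. Zrsr1 was also lower than Zrsr2, the gene it was copied from (16.9 and 15.7 TPM).

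Peg3 and Usp29 are paternally expressed, and the annotation places their first starts 147 nt apart on opposite strands of chromosome 7. Peg3 (6703892 to 6730431, minus strand), a large zinc finger protein, stood at 31.9 TPM in pup 1 and 25.8 in pup 2. Usp29, a ubiquitin protease gene, had 1 expected count in pup 1 and 0 in pup 2, below the floor of 3 counts, so no ratio is given. The only Usp29 transcript that was quantified starts 230.7 kb from the Peg3 start, so Usp29 RNA from the shared start region was not measured here. Peg3 had 9166 and 7465 expected counts. Zim1, the maternally expressed zinc finger gene beside them, stood at 0.61 and 0.45 TPM.

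Sgce and Peg10 are another pair of paternally expressed genes with starts 99 nt apart on opposite strands, on chromosome 6. Sgce (4674350 to 4747207, minus strand), epsilon-sarcoglycan, stood at 25.5 and 24.0 TPM. Peg10 (4747306 to 4760517, plus strand), a gene derived from a retrotransposon and needed by the placenta, stood at 1.84 and 1.86 TPM, with a log2 ratio to Sgce of -3.74 ± 0.07. The maternally expressed genes further along, Asb4, an adaptor of ubiquitin ligases, and Ppp1r9a, the actin-binding protein neurabin, stood at 1.94 and 1.60 TPM and at 2.18 and 2.05 TPM. Their difference lay within its spread (log2 ratio -0.26 ± 0.134).

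The Snrpn-Ndn cluster on chromosome 7, paternally expressed and best known in neurons, was low throughout. Ndn (62346569 to 62350262, plus strand), a MAGE family protein that restrains cell growth, stood at 4.54 and 5.34 TPM. Snrpn (59982495 to 60140219, minus strand), a core protein of the spliceosome, stood at 3.88 and 4.25 TPM, while its paralog Snrpb stood at 176 and 161. Snrpn shares its transcript with Snurf, whose row took 6.05 and 3.13 TPM, so the division of reads between them is uncertain. The Snurf row held 25.2 and 13.1 expected counts, against 253 and 279 for Snrpn. Of the intronless genes, Peg12, a relative of the Frat proteins that bind GSK3, stood near the detection level at 1.16 and 0.93 TPM, and the RING finger gene Mkrn3 stood at 0.32 and 0.22. Magel2 had 0 and 4 expected counts. No marker of neurons was detected among the 10 tested, with a summed 0.87 TPM in pup 1 and 1.40 in pup 2.

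The remaining single genes were of middle to low level. Plagl1 (chromosome 10, 13060504 to 13131694, plus strand), a zinc finger factor that regulates other imprinted genes, stood at 9.89 and 11.0 TPM, above its paralog Plag1 (1.16 and 0.84). Inpp5f (chromosome 7, 128611328 to 128696425, plus strand), a phosphoinositide phosphatase, stood at 6.31 and 6.44 TPM. Impact, which binds GCN1 and restrains the amino acid starvation response, stood at 6.27 and 4.98 TPM, below its partner gene Gcn1l1 in both livers (9.85 and 7.78; log2 ratio -0.65 ± 0.006). The small membrane proteolipid Nnat (chromosome 2, 157560078 to 157562522, plus strand) stood at 5.75 and 5.34 TPM. Nnat lies in an intron of Blcap on the other strand and stood below that host, with a log2 ratio of -1.03 ± 0.004. Airn (chromosome 17, 12741311 to 12860136, plus strand) is the noncoding RNA antisense to Igf2r. It stood at 2.47 and 2.14 TPM with 73 and 62 expected counts, below Igf2r (5.68 and 3.92). The Airn row had a length of 929 nt in pup 1 and 910 nt in pup 2, from transcripts of up to 3 exons. RNA from the rest of the gene span is not in that value. Nap1l5, a retrogene of a histone chaperone family in an intron of Herc3, stood at 0.16 and 0.14 TPM.

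Genes with a single exon were the low group. Of 8 protein-coding imprinted genes with 1 exon in every transcript quantified, 1 (Ndn) was detected, whereas 22 of 25 with more exons were. Usp29 and Nap1l5, counted among the 8, have spliced transcripts in GENCODE M21 that were not quantified; over all transcripts of that release, a count added after the data were seen, 1 of 6 single-exon genes and 22 of 27 others were detected, against 18.7% and 55.0% of all protein-coding genes. By the transcripts quantified, the shares among all protein-coding genes were 11.0% of 2174 with 1 exon and 57.7% of 19275 with more, so the gap in detection was also present outside the imprinted genes. The median TPM of the single-exon group was 0.24 in pup 1 and 0.18 in pup 2, and that of the other group 9.89 and 11.0.

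By parental allele, 14 of 16 maternally expressed genes and 13 of 22 paternally expressed genes were detected, with Gnas, whose allele depends on the transcript, making up the 28. These classes follow the textbook allele, known in part from placenta or brain, and no allele was measured in these livers. Maternally expressed genes summed to 1867 TPM in pup 1 and 1906 in pup 2, and paternally expressed genes to 509 in both. Without H19 the maternal sum was 593 and 582 TPM, with Cd81 (202 and 186) and Commd1 (137.5 and 139) its largest parts. The largest parts of the paternal sum were Slc38a4 (253 and 258) and Mest (109 and 110). The median gene stood at 12.6 and 14.4 TPM among the maternal and at 3.18 and 3.20 among the paternal genes. Of the 9 paternally expressed genes that were not detected, 8 have a single exon in every transcript quantified, Kcnq1ot1, Usp29 and Nap1l5 included, and 1 (Rtl1) does not.

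In all, 30 gene pairs were compared within a liver. The ratio was larger than the replicate spread in 24, within it in 4 (H19 and Igf2, Meg3 and Dlk1, Asb4 and Ppp1r9a, Kcnq1ot1 and Kcnq1), and not computed in 2 with a gene under 3 counts in a liver (Peg3 with Usp29 and Ndn with Magel2). With 2 livers no exact test can pass a usual threshold, so no p-value is given. Sgce and Peg10, which share a start region, were thus among the pairs far apart, and the products that oppose each other in the H19 and Dlk1 domains were among the closest. The pairs were chosen by hand and no share over other gene pairs is given, so the count of 24 describes these pairs only. An SD from 2 livers can be very small, as for Nnat and Blcap (0.004).

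**Figure D3:**
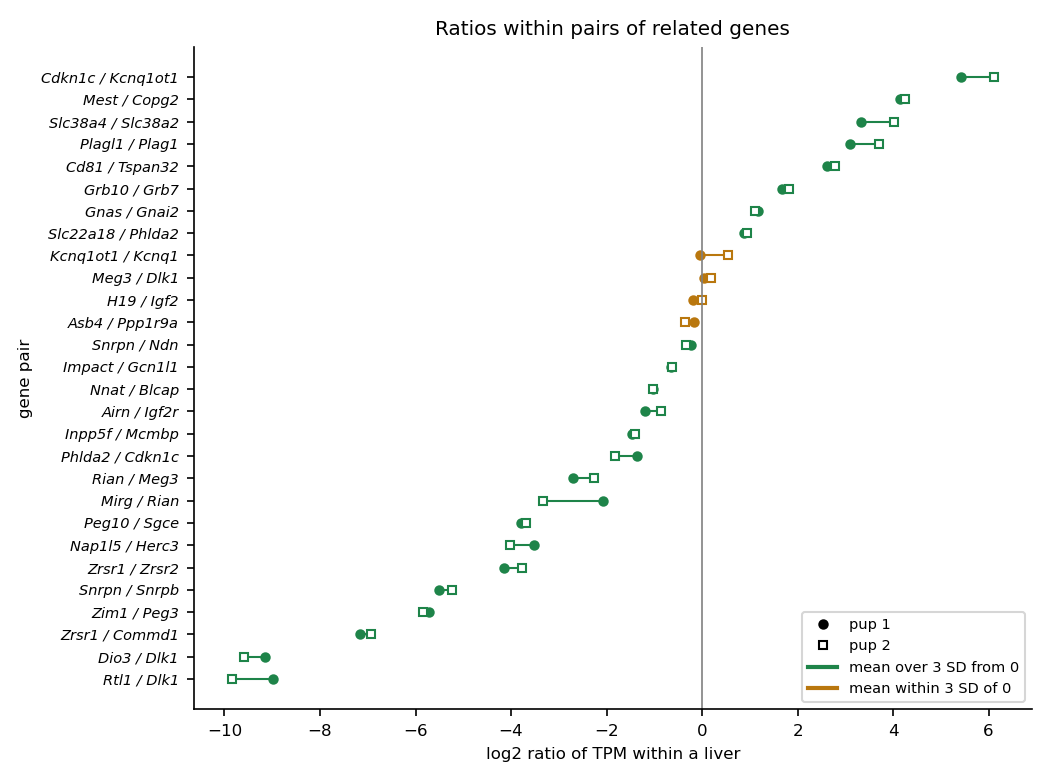
Log2 ratio of TPM within each liver for 28 gene pairs, pup 1 as filled circles and pup 2 as open squares, in order of the mean; green pairs are over 3 SD from 0 and orange pairs are not. Ratios run from -9.41 for Rtl1 to Dlk1 up to 5.77 for Cdkn1c to Kcnq1ot1, and the 4 orange pairs lie around 0.

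Transcript tables show which start sites carried the RNA. The 39 genes had 242 transcript rows, of which 4 could not be matched to the annotation. Of 25 detected genes with more than 1 row, 23 had the same leading transcript in both livers, the exceptions being Mirg and Peg10. In 17 of the 25 the leader held over 50% of the gene's TPM in both livers. The same shares over all genes are not given, so these counts do not set the imprinted genes apart from others. Starts within 500 nt of each other were joined into groups, a choice made after the data were seen. The division of reads among transcripts is an estimate and is less certain than the gene total.

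Gnas has start regions that differ in imprinting: in order along the gene, those of Nesp (maternal), of XL-alpha-s and exon 1A (paternal) and of Gs-alpha, which is expressed from both alleles in most tissues. Nearly all RNA of the locus in these livers came from the last of them. The group 45.7 kb from the first start held 96.2% of Gnas TPM in pup 1 and 96.9% in pup 2, with Gnas-208 leading at 55.4% and 56.0%. The group at 0 kb held 0.771% and 0.987%, the group at 13.5 kb 0.0275% and 0.047%, and the group at 43.2 kb 2.58% and 1.58%. Nespas, the antisense RNA of the locus, stood at 0.69 and 0.67 TPM. Imprinting of Gs-alpha itself is known from a few tissues only.

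Other genes also used 1 start region nearly alone. Mest RNA came mainly from the group at 14.5 kb, led by Mest-211 with 85.3% and 87.7%, and the group at the first start held 2.37% and 1.94%. Plagl1 RNA was assigned wholly to the group at 30.2 kb. In Grb10 the group at 1.3 kb held 80.9% and 77.2%, and a group at 12.0 kb held 16.1% and 18.8%. The second Grb10 group rested on short transcripts with 207 and 218 expected counts, against 14943 and 13147 for the first.

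A smaller number of genes divided their RNA between distant starts. Slc38a4 had 62.1% and 54.0% of its TPM in the transcript from the first start (Slc38a4-201) and 37.9% and 46.0% in one that starts 35.6 kb further on (Slc38a4-202), both with 16 exons. Inpp5f had 43.3% and 46.6% in Inpp5f-208, which has 6 exons and starts 76.2 kb after the first start. Imprinting of Inpp5f is known for a variant that starts inside the gene and was described in brain, whereas transcripts from its first start are not known to be imprinted. The group at the first Inpp5f start held 55.0% and 53.3%. In Commd1 a retained-intron transcript starting at 25.4 kb held 23.3% and 25.7%.

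The noncoding genes were assigned to several overlapping transcripts. H19 TPM was divided among H19-203 (43.4% and 44.3%), H19-202 (33.4% and 32.1%) and H19-205 (23.3% and 23.6%), with little difference between livers. Meg3-205 led Meg3 with 68.9% and 61.4%. Rian-202, which starts 42.2 kb after the first start of Rian, led with 35.0% in both livers, and the group at the first start held 0.976% and 2.38%. By TPM, the largest change of a share between livers among detected coding genes was in Sgce. There the retained-intron transcript Sgce-211 held 0.75% in pup 1 and 23.2% in pup 2, while Sgce-205 held 85.4% and 70.2%. For both transcripts the credible intervals overlapped between the livers, so this change is uncertain. By the posterior mean, Sgce-211 held 6.4% and 19.9%, and Sgce-205 held 74.3% and 67.9%.

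**Figure D4:**
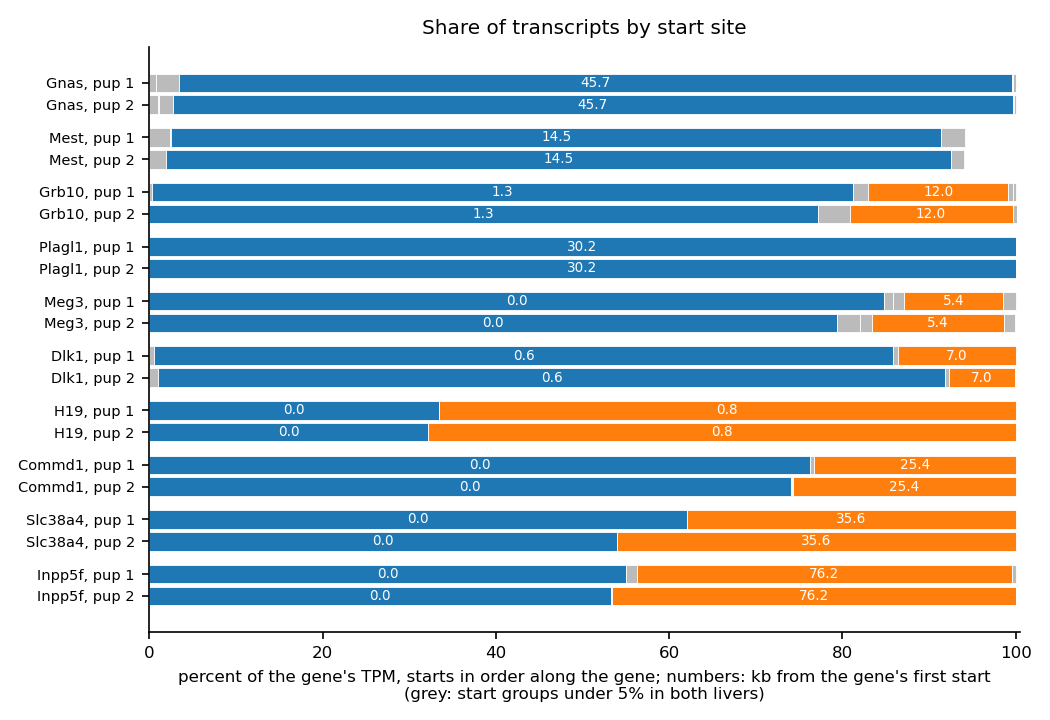
Percent of the TPM of 10 imprinted genes assigned to transcripts by start group, for each liver; segments run in order along the gene, numbers are kb from the first start, and grey segments are groups under 5% in both livers. The Gnas group at 45.7 kb holds 96.2% and 96.9%, while Slc38a4 and Inpp5f divide between distant starts; the Mest bars end short of 100 because a transcript with no match in the annotation is left out.

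Several imprinted genes share sequence with other long genes. An overlapping long gene was annotated for 14 of the 39, on the opposite strand for 12 and on the same strand for 3. The share over all genes was not counted, so this does not set the imprinted genes apart from others. It marks genes whose reads may be shared. In the overlaps of Zrsr1 with Commd1 and of Copg2 with Mest both genes belong to the set, and in each the second stood far above the first. Gm28048, a readthrough gene over Commd1, took 10.4 and 11.5 TPM. Values of Airn, Nnat, Nap1l5, Zrsr1, Kcnq1ot1 and Copg2 therefore carry this uncertainty.

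The difference between the livers was taken as the log2 of (TPM + 1) in pup 2 over that in pup 1, which understates the change of low genes. With 1 library an animal this compares 2 littermates and has no replicate check. Among the 30 imprinted genes with a mean of 1 TPM or more, 0 were at least 2-fold apart, against 0.629% of all 12711 genes tested. No p-value can be given, and 0 were found under each alternative scaling and filter tried. The median size of the log2 ratio was 0.121 for the imprinted genes and 0.114 for all genes, and the median signed ratio was 0.016 and -0.051.

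Credible intervals did not overlap for 8 of the 30 genes (26.7%), against 20.1% of all genes. Of these, 4 were higher in pup 2 (6.27% of all genes were) and 4 lower (13.8% of all genes). The higher ones were all maternally expressed: Cdkn1c (log2 ratio 0.47), Rian (0.54), Meg3 (0.16) and H19 (0.06). The lower ones were of both kinds: Tspan32 (-0.28) and Cd81 (-0.12) are maternally expressed, and Peg3 (-0.30) and Impact (-0.28) paternally. Separated maternal genes thus went in both directions. The intervals cover counting and read assignment and not the variation between animals. Among all genes between 10 and 100 TPM the SD of the log2 ratio was 0.28. Of the 30 genes, Rian, Mirg, Peg3, Cdkn1c and Tspan32 passed 1 SD of the genes of their level and none passed 2 SD.

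The liver of pup 2 also held more RNA of muscle and pancreas genes. All 14 muscle markers were higher in pup 2, with a summed 58.0 TPM in pup 1 and 857 in pup 2, and 11 of the 14 were at least 2-fold apart. Of 16 pancreas markers, 14 were higher, with sums of 20.1 and 154 TPM; Pnlip and Ptf1a were at 0 in both. The 12 hepatocyte markers were all detected and summed to 100950 TPM in pup 1 and 94126 in pup 2. The part of these RNAs in the higher Cdkn1c, Rian, Meg3 and H19 of pup 2 was not tested. The 14 stellate and mesenchymal markers summed to 551 and 512 TPM, and 11 of them were lower in pup 2. Most genes were lower there: of all with a mean of 1 TPM or more, 8009 were lower and 4658 higher. Des was the only stellate and mesenchymal marker at least 2-fold apart, at 3.51 and 12.3 TPM.

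**Figure D5:**
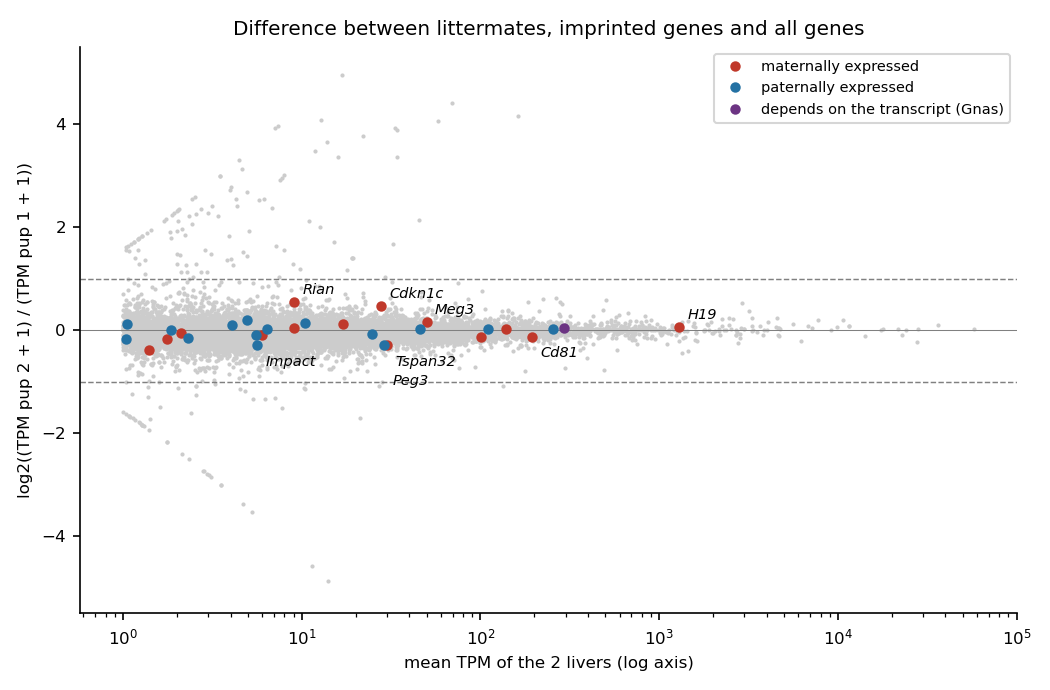
Log2((TPM + 1) ratio) of pup 2 over pup 1 against mean TPM (log axis) for 12711 genes (grey) and 30 imprinted genes (coloured by parental allele); dashed lines mark 2-fold. All coloured points lie between the dashed lines, and the 8 named genes have credible intervals that do not overlap.

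Genes that surround the imprinted ones were read from a list of 46 hosts and neighbours, of which 43 had a row. Of these, 30 were detected, against 28.5% of all Ensembl genes and 52.9% of all protein-coding genes. Igf2 led (1450 and 1325 TPM), followed by the serum esterase Pon1 (482 and 438), which lies in the Peg10 and Sgce region. Next came the histone chaperone Nap1l4 (49.6 and 44.5) in the Kcnq1 region. The list had 27 genes lower and 14 higher in pup 2, with a median log2 ratio of -0.05. Among all genes with a mean of 1 TPM or more, 8009 were lower and 4658 higher, with a median of -0.051. The list was thus close to all genes in this. The one gene of the list at least 2-fold apart, against 0.629% of all genes tested, was Tnnt3 (3.19 and 63.1 TPM). Tnnt3 is a muscle troponin near H19 that is also among the muscle markers. Th and Calcr had no reads in either liver.

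Factors that set or keep imprints were mostly present. Of 22 genes on this list, 17 were detected, against 52.9% of all protein-coding genes. On the list 0 were 2-fold apart, against 0.629% of all genes tested, so that count does not set these factors apart. The highest were Trim28, the corepressor that ZFP57 recruits (49.8 and 51.6 TPM), the boundary factor Ctcf (35.8 and 36.5) and Uhrf1, which guides DNA methylation after replication (38.3 and 33.0). The maintenance methyltransferase Dnmt1 stood at 16.5 and 13.2 TPM. Zfp57 itself stood at 1.97 and 1.17 TPM (102 and 71 expected counts), and the related Zfp445 at 4.50 and 4.52. The 5 below the detection level in at least 1 liver were Dnmt3l, Ctcfl, Dppa3, Tet1 and Tet2, of which the first 3 are known from germ cells and the early embryo.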

How the data were processed

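RNA was measured in 2 livers of newborn littermates, each as 1 library. The assay is named total RNA-seq in the labels, which cite the manual of an oligo-dT cDNA kit among their protocols; priming and strandedness are treated as not stated. Reads were assigned on mm10 with GENCODE M4, according to the authors' deposited notes. The aligner and counting program: not given in the sources used here. The authors made expected counts for genes and transcripts by dividing shared reads, and deposited them unscaled. TPM values were deposited by the authors and sum to 1000000 over all rows; the credible bounds of this signal were deposited by the authors around a posterior mean, so a TPM such as that of H19 can lie outside them, and their level is not stated. FPKM values deposited by the authors served only as an alternative. The percent of a gene's TPM held by each transcript was also deposited by the authors. Rows had an effective length 99 nt below their length.

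Genes were named by Ensembl identifier from GENCODE M21 (42462 of 43346 Ensembl rows), whose GRCm38 coordinates, counted from 1, are printed. Promoter and microRNA sequences are from RefSeq (GRCm38.p6). The genes, lists, pairs and alternatives were chosen with earlier results of these data known. All 39 genes are named with values in each liver. Other genes are named where a pair or list result turns on them, as the highest of a list, or when 2-fold apart. The muscle and pancreas markers are an exception, since most that were 2-fold apart are given only in counts and sums. At least 2-fold apart means a log2 ratio of 1 or more in size on log2(TPM + 1), a mean TPM of 1 or more and credible intervals that do not overlap; the comparison by intervals alone was added after the data were seen. With 1 group of 2 there was no contrast to test. The size rule was tested on simulated data. Alternative scalings used edgeR 4.0.16 and DESeq2 1.42.0 in R 4.3.3 on expected counts rounded to whole numbers; other steps used Python 3.11.15, pandas 2.3.3, numpy 2.4.6, scipy 1.17.1 and matplotlib 3.10.9.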

Additional observations from a re-analysis of the deposited data

How the results depend on the processing

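The number of detected imprinted genes stayed between 25 and 34 over all thresholds, units and estimates tried, with 29 in either liver taken alone. Their share of TPM was 0.267% and 0.271% with 1 liver left out, rose to 0.365% when globin and mitochondrial genes were left out of the total, and was 0.414% as a share of expected counts, in which long genes weigh more. No imprinted gene was at least 2-fold apart between the livers under any of the 8 alternatives, and 9 or 10 in place of 8 had separate credible intervals. Pairs with a ratio beyond the spread numbered 24 to 26; with the posterior mean, Asb4 to Ppp1r9a (-0.42) and Kcnq1ot1 to Kcnq1 (-1.56) passed, the second with its sign turned from 0.25; the cause was not tested. Transcripts holding 10% or more numbered 62 in each liver alone against 57 in both. The hexamer count fell from 10 to 6 genes with the 250 bases before the start only. No paired analysis was possible because the study has only 1 group. Leaving out a liver was not possible for the comparison between them. With 1 library an animal and shared reads at overlapping genes, depth limits the genes below 3 counts in a liver (Usp29, Magel2) most.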
